A study of Mus musculus with 8 samples.

Results

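The comparison set 5555-mEGFP melanoma cells treated with PLX4720 against the same cells treated with DMSO, the solvent, when the melanoma cells were grown alone (mono-culture). Its members were the genes detected at p under 0.01 on both arrays of at least 1 of these groups: 6982 of the 7357 genes tested in the series. Of these, 6390 genes were detected on all 4 mono-culture arrays. A further 175 genes were detected on both PLX4720 arrays and no DMSO array, and 136 genes on both DMSO arrays and no PLX4720 array. The remaining 149 and 132 genes were detected on both arrays of the PLX4720 or the DMSO group, respectively, and on 1 array of the other group.

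The series holds 8 arrays of total RNA from 5555-mEGFP, a mouse melanoma cell line carrying a green fluorescent protein, in 4 groups of 2 arrays. The cells received 0.1% DMSO or 1 mM PLX4720, the dose unit as the labels print it, for 24 hours. They were grown in mono-culture or in co-culture with MAF2-mCherry, a line of melanoma-associated fibroblasts, and were then isolated by fluorescence-activated cell sorting. The treatment description is worded for co-cultures, and whether the mono-cultures were also sorted is not given in the sources used here. All arrays therefore come from 1 cell line, and nothing in the labels says whether the 2 arrays of a group came from separate cultures, so the p-values reflect array-to-array spread, which may be technical. The labels do not give the BRAF genotype of 5555 cells.

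PLX4720 is an inhibitor of the BRAF kinase with a preference for its oncogenic mutant form. BRAF phosphorylates MEK, which phosphorylates ERK, and ERK drives transcription of cell cycle, growth and feedback genes. Among the direct outputs of ERK are its own brakes, the DUSP phosphatases and the Sprouty and SPRED proteins, together with ETS-family transcription factors of the PEA3 group and cyclin D1. In melanoma cells, BRAF inhibitors lower these outputs, arrest cells in the G1 phase and alter the set of growth factors and matrix proteins the cells make.

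The arrays were of like quality. Between 37.96% and 39.00% of the 25697 probes were detected on each of the 8 arrays, and the typical detected probe was 3.26 to 3.89 times as bright as background (median). Within mono-culture, replicate arrays correlated at 0.992 in both groups and arrays of different treatment at 0.946 to 0.955 (Pearson, across genes). Few melanocyte markers were detected: of 20 melanocyte markers with a probe, 17 were detected on no array of the series, among them Mitf, Tyr, Tyrp1, Dct, Pmel, Mlana, Pax3 and Ednrb. The 3 detected were Cdk2, Met and Gpnmb, which many other cells express. The other cell types were counted by markers detected on both arrays of either mono-culture group. These were 1 of 12 immune markers (Cd14), 1 of 9 endothelial markers (Eng) and 1 of 9 keratinocyte markers (Krt10). Of 20 fibroblast markers, 10 were detected on both DMSO arrays and 13 on both PLX4720 arrays.

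PLX4720 moved a large share of the transcriptome in both directions. At an adjusted p under 0.05 (limma, Benjamini-Hochberg over the 7357 genes tested), 1453 of the 6982 detected genes were higher with PLX4720 (20.8%) and 1345 were lower (19.3%), together 40.1%. Without mono-culture DMSO replicate 1 the counts were 953 and 932. The mono-culture groups did not overlap for 73.3% of detected genes. Fewer changes were large: 356 genes rose (5.10%) and 336 fell (4.81%) by at least 2-fold, and 43 rose and 44 fell by at least 4-fold (0.616% and 0.630%). The median log2 fold change was 0.01 and the middle 50% of detected genes lay between -0.32 and 0.35. Because quantile normalisation gives every array the same distribution, all values are relative to the rest of the transcriptome of that array.

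The extremes were wide. Among genes detected on at least 1 array of each group, the steepest fall, -4.50 (SE 0.21), was of Igfbp3, the insulin-like growth factor binding protein 3, and the steepest rise, 4.85 (SE 0.15), of Tgm2, the matrix cross-linking enzyme transglutaminase 2. The share of genes called was alike across levels: over the genes detected on all 4 arrays, ranked by mean level into 4 equal groups, 17.3% to 21.9% were higher and 16.5% to 20.5% were lower. The median SE of a fold change was 0.16 in the dimmest group and 0.13 in the brightest.

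**Figure D1:**
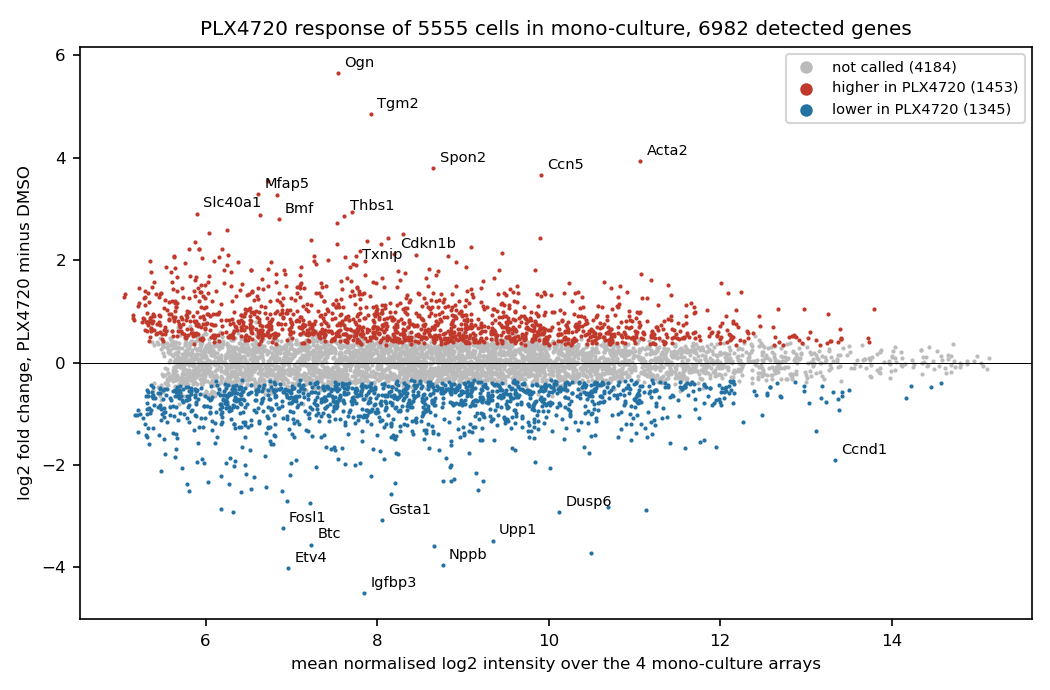
Each point is 1 of the 6982 detected genes, with its mean normalised log2 intensity over the 4 mono-culture arrays on the x axis and its log2 fold change (PLX4720 minus DMSO) on the y axis. Genes with an adjusted p under 0.05 are red (1453 higher) or blue (1345 lower), and both colours occur over the whole range of levels, including Tgm2 at 4.85 and Igfbp3 at -4.50. Genes not detected in a group are plotted at their measured difference, which is no bound.

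The transcriptional outputs of ERK fell. Of 25 listed ERK output genes, 17 were detected, 13 fell and none rose, against 19.3% lower and 20.8% higher over all detected genes. These shares over all detected genes are the ones to set beside the counts of each list below. Of the 11 members detected on all 4 arrays 8 fell, and their median log2 fold change was -1.32, against 0.01 over all 6390 such genes.

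Dusp6, the cytoplasmic phosphatase that switches ERK off, read 11.51 and 11.66 on the DMSO arrays and 9.15 and 8.16 on the PLX4720 arrays (normalised log2 intensity). Its log2 fold change was -2.93 (SE 0.26, adjusted p = 6.29e-05 by limma), a 7.60-fold lower level. Both PLX4720 arrays lay more than 2 log2 units under both DMSO arrays. The other kept Dusp6 probes read -2.72 and -1.03. Neither was detected with PLX4720, and the second was detected on 1 DMSO array, so the size of these falls is limited by background. The nuclear ERK phosphatase gene Dusp4 fell less, by 1.43 (SE 0.14, adjusted p = 0.000105 by limma), from 8.79 and 9.08 to 7.40 and 7.61. Spred1, an inhibitor of RAF activation, went from 10.58 and 10.42 to 9.24 and 8.86 (log2 fold change -1.45, SE 0.17).

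The 3 PEA3-group ETS factors left the detected range altogether. Etv4 read 8.83 and 9.11 with DMSO and 4.76 and 5.16 with PLX4720, where it was not detected on either array. Its fall was at least 10.7-fold (adjusted p = 2.29e-06 by limma). Where a gene was not detected in a group, such a bound sets the mean of the other group against the lowest detected signal of each array or, if higher, the signal of the gene itself. By the same measure Etv1 was at least 3.14-fold and Etv5 at least 3.36-fold lower. Spry4, a Sprouty-family inhibitor of RAS-ERK signalling, was at least 3.48-fold lower, from 7.33 and 7.35 to 5.39 and 5.27.

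Ccnd1, which encodes the G1 cyclin D1, was among the brightest genes that fell, from 14.22 and 14.34 to 12.49 and 12.28 (log2 fold change -1.90, SE 0.13, adjusted p = 1.80e-05 by limma). The receptor gene Epha2 fell by 1.32 (SE 0.24). Elk3 and Mafg, both transcription factor genes, fell by 0.70 (SE 0.14) and 0.53 (SE 0.16). The Mafg call was lost (adjusted p over 0.05) without replicate 2 of either mono-culture group and with the mono-culture arrays fitted alone.

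Not every listed output moved. Egr1, an immediate-early zinc finger factor, read 11.15 and 11.24 with DMSO and 11.19 and 10.90 with PLX4720, so the groups overlapped (log2 fold change -0.15, SE 0.13, adjusted p = 0.409 by limma). Ier3, an early-response survival gene, overlapped as well (-0.16, SE 0.18). Phlda1, a pleckstrin-homology gene induced by growth factors, read 10.49 and 9.93 against 9.81 and 9.07 and did not pass (-0.77, SE 0.31, adjusted p = 0.0759 by limma). It passed under the other normalizations tried, with the replicate number as a block and without PLX4720 replicate 1. Of these normalizations, no background subtraction and the authors' log2 values are the same values. The receptor gene Epha4 lay at the edge of detection (0.12, SE 0.18).

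**Figure D2:**
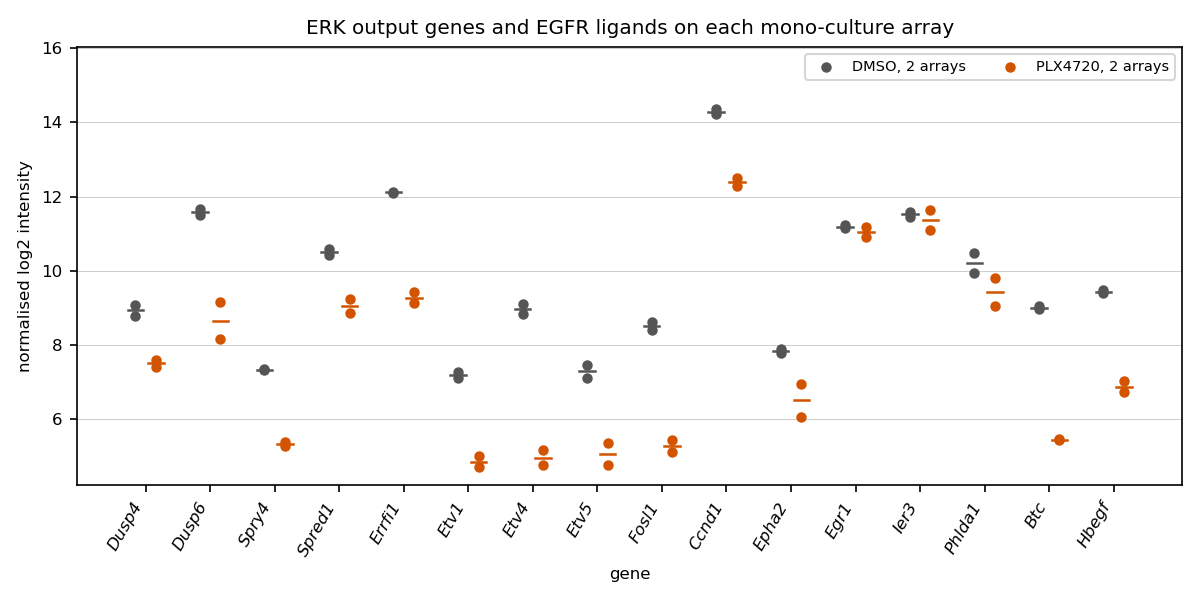
Normalised log2 intensity of 14 detected ERK output genes and the EGFR ligand genes Btc and Hbegf on each mono-culture array, with DMSO in grey, PLX4720 in orange, points for arrays and lines for group means. The orange points lie under the grey ones for every gene shown except Egr1 and Ier3, where the groups overlap.

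Ligand genes of the epidermal growth factor receptor (EGFR) and the gene of its intracellular inhibitor were called lower. The list held 12 genes, of which 3 were detected and all 3 fell. The 2 detected on all 4 arrays were Hbegf and Errfi1. Btc entered through the DMSO arrays, so nothing is read from its direction. Errfi1 was also counted among the ERK outputs. Btc, which encodes the ligand betacellulin, read 9.05 and 8.97 with DMSO and 5.45 and 5.46 with PLX4720, where it was not detected, a fall of at least 11.0-fold (adjusted p = 2.55e-07 by limma). Hbegf, the heparin-binding EGF-like ligand, went from 9.49 and 9.40 to 7.02 and 6.74 (log2 fold change -2.56, SE 0.14). Errfi1, the feedback inhibitor that binds the EGFR kinase domain, went from 12.10 and 12.12 to 9.43 and 9.13 (-2.83, SE 0.13). For all 3 genes the replicate arrays of a group lay close together beside the distance between the groups.

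AP-1 genes were called in both directions. AP-1 is a dimer of FOS and JUN proteins, and 6 of 10 listed genes were detected, 2 higher and 2 lower (33.3% each, against 20.8% higher and 19.3% lower over all detected genes). Of the 4 detected on all 4 arrays, 1 was higher and 1 lower. Fosl1, which encodes FRA1, a FOS member that ERK stabilises, fell at least 7.85-fold, from 8.61 and 8.42 to 5.43 and 5.13. Jun read 8.12 and 8.04 with DMSO and 6.99 and 6.36 with PLX4720 (-1.41, SE 0.19, adjusted p = 0.000499 by limma). Fos itself rose: it was detected on no DMSO array and read 7.05 on both PLX4720 arrays, at least 2.82-fold higher. Junb rose by 0.86 (SE 0.18), from 7.72 and 7.82 to 8.69 and 8.56. Fosb (0.05, SE 0.38) and Jund (0.55, SE 0.32) did not pass the test.

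Other immediate-early genes leaned upward. Of 28 listed, 17 were detected, 8 rose (47.1%) and 2 fell (11.8%), with a median of 0.50 over those detected on all 4 arrays. Over all detected genes 20.8% were higher and 19.3% lower. Gadd45b, a stress-response gene, rose by 1.5 (SE 0.14), and the genes of the mRNA-destabilising proteins Zfp36l1 and Zfp36 by 0.96 (SE 0.15) and 0.92 (SE 0.15). Ccn2, a matricellular gene and YAP target, read 11.49 and 11.33 with DMSO and 13.34 and 12.22 with PLX4720 (1.37, SE 0.28), so the PLX4720 arrays differed from each other by more than 1 log2 unit. Plk2 rose by 1.11 (SE 0.25), a call lost without replicate 1 of either mono-culture group. Plk3, a stress kinase of the polo family, and Klf4, a Krüppel-like factor, fell by 1.35 (SE 0.24) and 1.27 (SE 0.27).

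Genes of DNA replication fell broadly. Of 49 listed, 38 were detected, 33 fell and none rose, and the median over the 36 detected on all 4 arrays was -0.88. Cdc6, which loads the MCM helicase onto origins, went from 8.24 and 7.93 to 5.98 and 5.81 (log2 fold change -2.19, SE 0.15, adjusted p = 1.62e-05 by limma). Ung, the uracil-DNA glycosylase, showed the steepest fall of the list, from 8.39 and 8.78 to 6.0 and 5.68 (-2.74, SE 0.19). The other kept Ung probes read -1.13 and -0.77. Neither was detected with PLX4720, so the size of their falls is limited by background.

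The helicase subunit gene Mcm3 fell by 1.68 (SE 0.13), the ribonucleotide reductase subunit gene Rrm2 by 1.48 (SE 0.14) and the sliding clamp gene Pcna by 1.26 (SE 0.14). The 5 members that did not pass were Mcm6, Rfc1, Rpa1, Rfc2 and Prim2, with log2 fold changes from -0.36 to -0.21. Mcm5, another helicase subunit, fell by 0.78 (SE 0.17), from 11.41 and 11.88 to 10.78 and 10.95.

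The regulators of the G1 phase moved in both directions. Of 27 listed, 21 were detected, 10 fell and 3 rose. Of the 19 detected on all 4 arrays, 9 fell and 2 rose. Ccne2, the gene of cyclin E2, went from 7.06 and 6.88 to a level not detected with PLX4720, at least 2.69-fold lower. Ccne1 fell by 1.25 (SE 0.16), E2f2 by 1.42 (SE 0.13) and Cdk2 by 0.82 (SE 0.16). The 3 that rose encode CDK inhibitors: Cdkn1b (p27), Cdkn1c (p57) and Cdkn2c (p18). Cdkn1c entered through the PLX4720 arrays and Ccne2 through the DMSO arrays, so nothing is read from their direction.

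Cdkn1b rested on scattered arrays. It read 6.22 and 8.06 with DMSO and 9.99 and 8.51 with PLX4720, with a log2 fold change of 2.11 (SE 0.56, adjusted p = 0.0153 by limma). The call was lost without DMSO replicate 1, without PLX4720 replicate 1, without the detection filter and under the methods' t-test. Over all alternatives the log2 fold change ranged from 1.19 to 3.03. Cdkn1c, detected with PLX4720 only, was at least 1.30-fold higher. Cdkn1a, which encodes p21, read 11.49 and 11.39 against 11.36 and 10.93 and did not pass (-0.29, SE 0.15).

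Few mitotic genes were called. Of 58 listed, 36 were detected, 6 fell and none rose, a share of 16.7% lower against 19.3% over all detected genes, with a median of -0.07. Mybl2, a transcription factor gene of the late cell cycle, fell by 1.65 (SE 0.19), Cdca5 by 0.63 (SE 0.12) and Cdk1 by 0.59 (SE 0.12). The spindle checkpoint gene Mad2l1 fell by 0.55 (SE 0.15), a call lost without PLX4720 replicate 1 or DMSO replicate 2. Plk1, Aurka, Foxm1 and Top2a did not pass, at 0.07, 0.05, 0.03 and -0.20.

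Genes of ribosome biogenesis and other MYC targets fell too. Of 62 listed, 48 were detected, 41 fell and 1 rose, with a median of -0.95 over the 46 detected on all 4 arrays. Rrp12, which exports pre-ribosomes, went from 9.77 and 9.70 to 8.02 and 7.73 (-1.86, SE 0.14, adjusted p = 2.64e-05 by limma). Gnl3, the nucleolar GTPase nucleostemin, went from 12.49 and 12.35 to 10.90 and 10.61 (-1.67, SE 0.14). Grwd1, a histone chaperone with a part in ribosome assembly, fell by 1.73 (SE 0.15), and Srm, spermidine synthase, by 2.05 (SE 0.22).

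The 1 gene of this list that rose was Mxd4, a MAX-binding antagonist of MYC, from 5.83 and 5.73 to 7.66 and 7.83 (1.97, SE 0.13, adjusted p = 1.05e-05 by limma). Myc itself was at the edge of detection, seen on 1 DMSO array and on no PLX4720 array, and so was not among the detected genes.

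Few genes of the ribosome itself or of the respiratory chain were called. Of 79 listed cytosolic ribosomal protein genes, 53 were detected and 1 fell, Rps15a, by 0.81 (SE 0.18). The other 52 did not pass, and the median was -0.02. Of 79 listed genes of respiratory chain subunits and their regulators, 68 were detected, 3 rose and 2 fell, with a median of -0.01. The falls were of Tfam, a mitochondrial transcription factor gene (-0.73), and the complex I subunit gene Ndufb2 (-0.46). The Ndufb2 call was lost under the other normalizations tried and without DMSO replicate 1 or PLX4720 replicate 2. These shares, 1.89% lower for ribosomal proteins and 4.41% higher and 2.94% lower for the respiratory chain, stand against 20.8% higher and 19.3% lower over all detected genes.

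**Figure D3:**
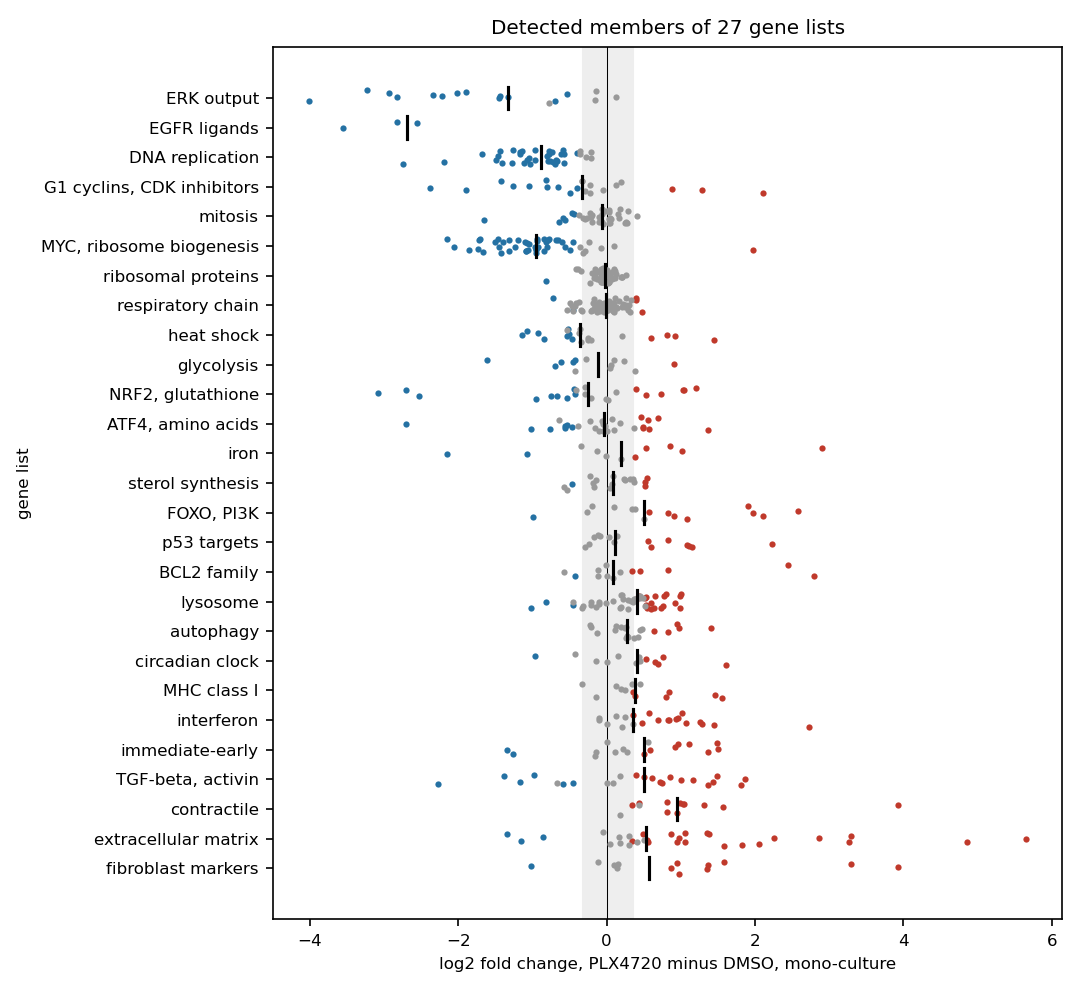
Log2 fold changes (PLX4720 minus DMSO, mono-culture) of the detected members of 27 gene lists, with red for genes called higher, blue for genes called lower and grey for the rest. Black bars mark the median of members detected on all 4 arrays, and the grey band spans the middle 50% of all detected genes (-0.32 to 0.35). The ERK output, DNA replication and ribosome biogenesis medians (-1.32, -0.88 and -0.95) lie left of the band. So does that of the EGFR ligand list (-2.69), which rests on 2 genes, the ligand gene Hbegf and the inhibitor gene Errfi1. The contractile and matrix medians (0.95 and 0.53) lie right of the band.

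Targets of FOXO factors, which act when PI3K-AKT signalling is low, leaned upward. Of 23 listed genes of the FOXO and PI3K pathway, 15 were detected, 8 rose (53.3%) and 1 fell (6.67%). Of the 13 detected on all 4 arrays 6 rose and 1 fell, with a median of 0.50. Over all detected genes 20.8% were higher and 19.3% lower. Pik3ip1, an inhibitor of PI3K, was not detected with DMSO and read 7.46 and 7.62 with PLX4720, at least 3.96-fold higher (adjusted p = 1.34e-05 by limma). Fbxo32, the ubiquitin ligase atrogin-1, was at least 2.90-fold higher. Txnip, the inhibitor of thioredoxin and of glucose uptake, went from 6.44 and 7.15 to 8.41 and 8.99 (1.91, SE 0.41). The transcriptional repressor Bcl6 rose by 0.92 (SE 0.12) and the stress protein gene Sesn1 by 1.09 (SE 0.19). Trib2, a pseudokinase that opposes FOXO, fell by 0.99 (SE 0.19).

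Among BCL2 family genes, the members that rose all promote cell death. Of 20 listed, 13 were detected, 5 rose and 1 fell. Bcl2l11, which encodes BIM, the BH3-only protein that ERK marks for degradation, read 6.96 and 6.85 with DMSO and 9.03 and 9.67 with PLX4720 (2.44, SE 0.19, adjusted p = 3.19e-05 by limma). A second kept Bcl2l11 probe rose by 1.43. Bmf, another BH3-only gene, was detected on 1 of 2 DMSO arrays and went from 5.13 and 5.78 to 8.19 and 8.31 (2.80, SE 0.24).

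Smaller changes in this family were less firm. Bbc3, which encodes PUMA, rose by 0.83 (SE 0.24), but its other kept probes read 0.26 and -0.35, neither past the test, and the call was lost without any 1 of the 4 mono-culture arrays. Bcl2l1, which encodes the survival protein BCL-XL, fell by 0.43 (SE 0.14), but its other kept probes both read -0.07 and did not pass, and the call was lost under median scaling and in most of the fits that left out an array. Mcl1, another survival gene, read 10.74 and 10.70 against 10.88 and 10.57, with a log2 fold change of 0.00 (SE 0.14). Of 21 listed p53 targets, 15 were detected, 7 rose (46.7%) and none fell, against 20.8% higher and 19.3% lower over all detected genes. The median was 0.12. Fas, the death receptor gene, was at least 2.80-fold higher, while Mdm2, Ccng1 and Cdkn1a did not pass (-0.24, -0.09 and -0.29).

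Genes of the contractile cytoskeleton rose. Of 25 listed, 13 were detected, all of them on all 4 arrays, and 11 rose and none fell, with a median of 0.95. Acta2, the smooth muscle actin gene, read 8.82 and 9.39 with DMSO and 13.67 and 12.40 with PLX4720, a large rise for a gene already detected without drug (3.93, SE 0.34, adjusted p = 5.14e-05 by limma). Both PLX4720 arrays lay at least 3 log2 units over both DMSO arrays. Caldesmon (Cald1) rose by 1.31 (SE 0.17), tropomyosin 1 (Tpm1) by 1.04 (SE 0.13), and the focal adhesion gene vinculin (Vcl) by 1.03 (SE 0.14), from 11.60 and 11.75 to 12.84 and 12.56. Csrp1, a LIM-domain gene of smooth muscle, rose by 1.57 (SE 0.27), and Cnn2, the gene of calponin 2, by 0.99 (SE 0.19). Tpm2 and Actn1 did not pass, at 0.18 and 0.44.

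Extracellular matrix genes also rose. Of 60 listed matrix genes, proteases and protease inhibitors, 31 were detected, 20 rose and 3 fell, and of the 24 detected on all 4 arrays 14 rose and 3 fell, with a median of 0.53. Ogn, the matrix proteoglycan osteoglycin, was detected on no DMSO array (4.80 and 4.63) and read 10.52 and 10.22 with PLX4720, at least 28.2-fold higher (adjusted p = 2.55e-07 by limma). Tgm2 went from 5.38 and 5.63, detected on 1 array, to 10.43 and 10.28 (4.85, SE 0.15). For both genes the gap between the groups was many times that between replicate arrays.

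Mfap5, a microfibril protein gene, and Ccdc80, which encodes a secreted matrix protein, were detected only with PLX4720 and were at least 6.54-fold and 7.54-fold higher. Thbs1, thrombospondin 1, went from 6.30 and 6.06 to 9.59 and 8.51 (2.87, SE 0.28). The basement membrane gene Nid2 rose by 2.06 (SE 0.15), the matrix metalloproteinase gene Mmp11 by 2.26 (SE 0.17) and the collagen VI gene Col6a1 by 1.58 (SE 0.19). Timp1, an inhibitor of metalloproteinases, and Plaur, the urokinase receptor, fell by 1.34 (SE 0.17) and 1.15 (SE 0.25), and the basement membrane collagen gene Col18a1 by 0.85.

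Fibroblast markers leaned upward although the cells were grown alone. The lists share genes, so this is not separate from the groups above. Acta2 is also in the contractile list and Mfap5 in the matrix list, and Col6a1 was described with the matrix genes. Of 20 markers, 13 were detected and 8 rose (Acta2, Mfap5, Col6a1, Cd248, Pdgfrb, Col3a1, Col1a2 and Col1a1). Of the rest, 1 fell (Pdpn, by 1.01) and 4 did not pass. The shares of 61.5% higher and 7.69% lower stand against 20.8% and 19.3% over all detected genes. Of the 10 markers detected on all 4 arrays, 5 rose and 1 fell. The summed level of all 20 markers, on the linear scale, was 4670 to 5580 with DMSO and 12000 to 17900 with PLX4720. Acta2 was the brightest marker with PLX4720 and weighs most in the sum there. It read 8.82 and 9.39 with DMSO and 13.67 and 12.40 with PLX4720. Several defining markers (Dcn, Lum, Postn, Thy1, Fap, Tcf21 and Col6a2) were detected on none of the 8 arrays, and Pdgfra was at 0.16 (SE 0.16). Mfap5 and Col1a1 were detected with PLX4720 only and Col1a2 on 1 DMSO array. These genes entered through the PLX4720 arrays, so nothing is read from their direction. The part of fibroblast RNA in these rises was not tested.

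**Figure D4:**
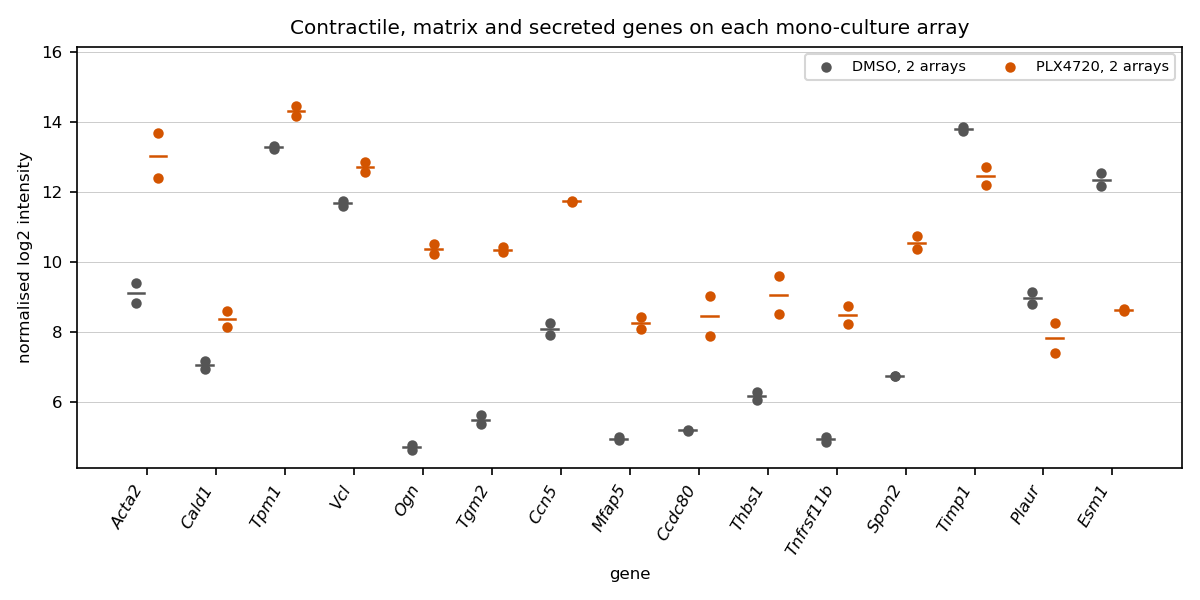
Normalised log2 intensity of 15 contractile, matrix and secreted-factor genes on each mono-culture array, with DMSO in grey, PLX4720 in orange, points for arrays and lines for group means. Tgm2 and Acta2 rose by 4.85 and 3.93 and Ogn at least 28.2-fold, whereas Timp1, Plaur and Esm1 fell.

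Several secreted factors outside those lists stood at the extremes. Spon2, a matrix protein of the spondin family, went from 6.75 and 6.76 to 10.36 and 10.75 (3.80, SE 0.24). Ccn5, a matricellular CCN family gene, went from 7.91 and 8.26 to 11.75 and 11.73 (3.65, SE 0.15), and Tnfrsf11b, the decoy receptor osteoprotegerin, was at least 7.69-fold higher. On the other side, Esm1, the proteoglycan endocan, went from 12.55 and 12.15 to 8.60 and 8.66 (-3.72, SE 0.15), and Nppb, the natriuretic peptide gene, from 11.07 and 10.41 to 7.42 and 6.16 (-3.95, SE 0.35). No array of a group overlapped the other group in any of these genes.

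Further steep falls were of Sema7a, a membrane-anchored semaphorin gene (-3.58, SE 0.25), and Upp1, uridine phosphorylase 1, which went from 11.09 on both DMSO arrays to 7.69 and 7.54 (-3.48, SE 0.12). Prkg2, a cGMP-dependent kinase gene, fell by 2.87 (SE 0.18). Insm1, a zinc finger factor of neuroendocrine cells, and Krt12, a keratin gene, were detected with DMSO only and were at least 4.71-fold and 4.21-fold lower. Among the remaining steep rises, the forkhead factor gene Foxq1 went from 6.37 and 6.10 to 9.12 and 9.23 (2.94, SE 0.21).

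Genes of the insulin-like growth factor axis were led by Igfbp3, which read 10.41 and 9.79 with DMSO and 5.38 and 5.81 with PLX4720, where it was detected on 1 array. Of 14 listed, 8 were detected, 3 rose and 2 fell. Of the 6 detected on all 4 arrays, 3 rose and none fell, with a median of 0.54. The falls were of genes detected on at most 1 PLX4720 array. Stc2, stanniocalcin 2, was at least 3.18-fold lower. Igfbp4 and Igfbp6, which encode related binding proteins, rose by 0.60 and 0.59, and the serine protease gene Htra1 by 1.27. The receptors Igf1r and Igf2r did not pass, at 0.10 and 0.01.

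Of 32 listed genes of the TGF-beta and activin pathway, 23 were detected, 13 rose (56.5%) and 6 fell (26.1%), with a median of 0.50. Over all detected genes 20.8% were higher and 19.3% lower. Tgfbi, a TGF-beta-induced matrix protein gene, went from 9.06 and 8.81 to 10.59 and 10.90 (1.81, SE 0.15), and Smad6, an inhibitory SMAD, from 6.02 and 6.35 to 7.97 and 8.11 (1.86, SE 0.16). Inhba, the activin A subunit, rose by 1.43 (SE 0.18), while Fst, the activin antagonist follistatin, went from 10.36 and 9.70 to 7.83 and 7.68 (-2.28, SE 0.21). The BMP target Id1 fell by 1.17 and its relative Id3 rose by 0.73.

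Interferon-stimulated genes rose in part. Of 44 listed, 21 were detected, 14 rose and none fell. Of the 14 detected on all 4 arrays, 7 rose, with a median of 0.36. The other 7 rises were of genes detected on at most 1 DMSO array, which entered through the PLX4720 arrays, so that nothing is read from their direction. Gbp2, an interferon-induced GTPase, went from 5.99 and 6.34 to 8.92 and 8.86 (2.73, SE 0.15, adjusted p = 4.82e-06 by limma). Ifi27 rose by 1.45 (SE 0.17), and Irgm2 and Usp18, detected with PLX4720 only, were at least 1.46-fold and 1.28-fold higher. The interferon-induced genes Bst2, Irgm1 and Ifit2 did not pass, at -0.10, -0.10 and 0.13.

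Antigen presentation genes of the MHC class I pathway showed 6 rises and no fall among 13 detected of 27 listed. The share higher was 46.2%, against 20.8% higher and 19.3% lower over all detected genes. The class Ib gene H2-T23 went from 9.63 and 9.29 to 11.16 and 10.87 (1.55, SE 0.21) and the peptide transporter gene Tap2 from 5.81 and 5.95 to 7.39 and 7.30 (1.46, SE 0.20). Calls for Tapbpl (0.80) and H2-Q7 (0.85) were each lost without some arrays: replicate 1 of either mono-culture group for Tapbpl, and PLX4720 replicate 1 or DMSO replicate 2 for H2-Q7. H2-Q7 belongs to a family of near-identical genes whose RNA a probe may not tell apart.

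Of 35 listed NF-kB targets and chemokines, 14 were detected, 5 rose and 2 fell, with a median of 0.18. The chemokine gene Ccl7, detected with PLX4720 only, was at least 1.78-fold higher and the TNF-induced gene Tnfaip2 fell by 0.97. Of 18 listed genes of SOCS and gp130-STAT3 signalling, 12 were detected, 3 rose and 3 fell. The falls were of the cytokine brakes Socs2, from 9.37 and 9.51 to 8.18 and 7.36 (-1.67, SE 0.24), Socs5 (-1.10) and Socs6 (-1.03). The rises were of Il6st, the gp130 receptor gene (0.91), Stat5a (0.91) and Stat3 (0.55). The other kept Stat5a probe read 0.09 and did not pass. Socs3 did not pass, at -0.25.

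Glutathione and NRF2-linked genes divided. Of 33 listed, 22 were detected, 6 rose and 9 fell. Gsta1, an alpha-class glutathione transferase, read 10.17 and 9.02 with DMSO and 7.26 and 5.78 with PLX4720 (-3.08, SE 0.45, adjusted p = 0.000759 by limma). Slc7a11, the cystine transporter, went from 8.59 and 8.0 to 5.70 and 5.49, detected on 1 PLX4720 array (-2.70, SE 0.20). By contrast the mu-class transferases Gstm1 and Gstm2 rose by 1.04 (SE 0.16) and 1.21 (SE 0.20), although the other kept Gstm1 probe read 0.23 and did not pass. Nqo1, a standard NRF2 target, did not pass, at -0.30. The transferases within a class are close in sequence, and a probe may read more than 1 of them.

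Iron handling genes included rises and falls. Of 16 listed, 11 were detected, 5 rose (45.5%) and 2 fell (18.2%), against 20.8% higher and 19.3% lower over all detected genes. Of the 9 detected on all 4 arrays, 4 rose and 1 fell. Tfrc, the transferrin receptor that brings iron in, went from 10.34 and 10.12 to 8.40 and 7.75 (-2.15, SE 0.20, adjusted p = 7.63e-05 by limma). Slc40a1, the iron exporter ferroportin, was not detected with DMSO and read 7.53 and 7.17 with PLX4720, at least 3.48-fold higher. The importer gene Slc39a14 was called lower and was detected with DMSO only, and the ferritin heavy chain gene Fth1 was at 0.00. Slc40a1 and Slc39a14 each entered through the group that detected them, so nothing is read from their direction.

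Glycolysis and hypoxia genes were called in both directions. Of 20 listed glycolysis genes, 13 were detected, 5 fell and 1 rose, with a median of -0.12, and Hk2, hexokinase 2, went from 9.73 and 9.60 to 8.39 and 7.72 (-1.61, SE 0.19). Gapdh, Aldoa and Pkm, which encode enzymes further down the pathway, did not pass (0.04, 0.06 and 0.10). Pfkm, the muscle form of phosphofructokinase, rose by 0.91, while 1 of its other kept probes read 0.34 and did not pass. Of 24 listed HIF targets, 14 were detected, 6 fell and 2 rose. Of the 10 detected on all 4 arrays, 3 fell and 2 rose, with a median of 0.03. The adenylate kinase gene Ak4, detected with DMSO only, was at least 1.81-fold lower, Egln3 fell by 1.18, and the mTOR inhibitor gene Ddit4 rose by 1.36 (SE 0.23).

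Amino acid and lipid genes were called in both directions. Of 35 listed ATF4 targets and amino acid genes, 28 were detected, 7 rose and 7 fell (25% each, against 20.8% and 19.3% over all detected genes), with a median of -0.03. The one-carbon enzyme gene Shmt2 fell by 0.76, and the cystathionine lyase gene Cth, detected with DMSO only, was at least 1.10-fold lower. Of 25 listed sterol synthesis genes, 18 were detected, 3 rose and 1 fell, with log2 fold changes from -0.58 to 0.54. Of 15 listed fatty acid genes, 12 were detected, 5 rose (41.7%) and 1 fell (8.33%), with a median of 0.31, among them the desaturase genes Scd1 (0.71) and Scd2 (0.82). The Scd2 call was lost without replicate 2 of either mono-culture group.

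Lysosomal genes leaned upward by small amounts. Of 59 listed, 47 were detected, 19 rose (40.4%) and 3 fell (6.38%), against 20.8% higher and 19.3% lower over all detected genes. The median was 0.41, with rises of up to 1.00. The rises with the smallest p were of Lgmn, the protease legumain (0.98), Idua (1.00) and Smpd1 (0.92), which encode hydrolases. The cathepsin gene Ctsc fell by 0.82, and Ctsl, detected with DMSO only, was at least 1.46-fold lower. Of the other kept probes of Smpd1 (0.43 and 0.88) and Ctsc (-0.41 and -0.89), the one nearer 0 did not pass. Neither of these Ctsc probes was detected with PLX4720. Of 26 listed autophagy genes, 20 were detected, 5 rose and none fell, including the kinase gene Ulk1 (0.95), the ATG8 family genes Map1lc3a (0.98) and Gabarapl1 (0.83), and the receptor gene Calcoco1, at least 2.42-fold higher.

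Of 28 listed heat shock and chaperone genes, 20 were detected, 8 fell and 4 rose. The mitochondrial chaperonin gene Hspd1 and the cytosolic chaperone gene Hspa4 fell by 1.08 and 1.14, and the small heat shock gene Hspb1 rose by 1.45. Of 19 listed circadian clock genes, 13 were detected, 5 rose (38.5%) and 1 fell (7.69%). Over all detected genes 20.8% were higher and 19.3% lower. Dbp, a clock output factor, went from 10.20 and 10.56 to 11.80 and 12.19 (1.61, SE 0.18), and the core activator gene Arntl from 7.01 and 6.82 to 6.28 and 5.62 (-0.96, SE 0.20). Tef and Per2 rose by 0.76 and 0.70, calls lost without DMSO replicate 1 and without a PLX4720 array (replicate 2 for Tef, replicate 1 for Per2).

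Receptor tyrosine kinase genes were called in both directions. Of 35 listed, 12 were detected, 3 rose and 3 fell (25% each). Mertk, a receptor of the TAM family, went from 8.36 and 7.91 to 5.69 and 5.58 (-2.50, SE 0.16, adjusted p = 1.20e-05 by limma), while its relative Axl was at 0.01. The collagen receptor gene Ddr1 and the PDGF receptor gene Pdgfrb both rose by 1.36 (SE 0.12 and 0.24). Met, detected with DMSO only, was called lower by at least 1.03-fold, a call lost under many of the alternatives, and Pdgfra and Igf1r did not pass.

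Of 20 listed dedifferentiation genes of melanoma, 10 were detected, 3 rose and 4 fell, among them the stem cell factor gene Sox2, from 9.36 and 9.05 to 7.93 and 7.85 (-1.32, SE 0.16), and the YAP target Ccn1 (1.48, SE 0.35). Of 15 listed genes of epithelial-mesenchymal transition, 9 were detected, 2 rose and 1 fell, with Snai1 at 1.41 (SE 0.13) and Twist2 at -0.67. The Zeb2 rise of 0.68 (SE 0.16) was lost without replicate 2 of either mono-culture group. Of 28 listed adhesion genes, 19 were detected, 7 rose (36.8%) and 4 fell (21.1%), from Itgb7 at -1.34 to Itgb5 at 1.38. Over all detected genes 20.8% were higher and 19.3% lower. Of 17 listed Notch pathway genes, 6 were detected, 2 rose and 2 fell: Rbpj, the DNA-binding partner of Notch, fell by 1.64 (SE 0.29) and Hes6 rose by 1.01, while the Notch target Nrarp, not detected with PLX4720, was at least 1.53-fold lower and Dtx4, not detected with DMSO, at least 2.72-fold higher. Hes1 did not pass, at -0.31.

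Promoter sequence was set beside these groups, from RefSeq promoters (GRCm38.p6, 250 bases before to 50 after a start), which matched 5780 of the 6982 detected genes. Motifs were searched on both strands, 1 listed start a gene, and a match is a description of letters and not of binding. The E2F motif TTTCGCGC was held by 2.05% of 1122 promoters of genes that fell, 0.606% of 3465 of genes not called, 0.503% of 1193 of genes that rose and 0.318% of all 27025 promoters. The ETS motif CCGGAAGT was held by 5.11% of promoters of genes that rose, 10.7% of those that fell, 11.1% of those not called and 4% of all. For the CCAAT box and the antioxidant element TGANNNNGC the shares of the 3 classes of detected genes lay within 3 percentage points of each other (38% to 40.6% and 42.1% to 43.8%). The cAMP element TGACGTCA was held by 2.51% of promoters of genes that rose, 3.12% of those that fell, 3.78% of those not called and 1.88% of all. For the cell cycle motif TTTGAA the shares were 11.1%, 13.1%, 11.1% and 18.1%, in the same order. The AP-1 motif TGANTCA was held by 5.78%, 3.92%, 4.59% and 7.93%, the CArG box by 1.51%, 0.891%, 1.44% and 1.57%, and the E-box CACGTG by 9.81%, 12.6%, 10.8% and 7.24%.

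A few short stretches show such matches in genes described above, each as 120 bases on the strand of the gene with the match in capitals. Mcm5 stands for the replication genes and holds the E2F motif 153 to 146 bases before its start. Cnn2 and Vcl stand for the contractile genes and hold a CArG box, the motif of serum response factor, which 1.51% of promoters of genes that rose hold, against 1.44% of those not called. Nop2 and Hspd1 stand for the ribosome biogenesis and MYC list and hold the E-box. Upp1 is among the genes that fell most and holds the AP-1 motif, which fewer promoters of genes that fell held (3.92%) than of genes not called (4.59%). The Hspd1 match shares bases with a match of the antioxidant element, and no other match shown overlaps a motif searched.
Mcm5 (chr8:75109300-75109419, plus strand): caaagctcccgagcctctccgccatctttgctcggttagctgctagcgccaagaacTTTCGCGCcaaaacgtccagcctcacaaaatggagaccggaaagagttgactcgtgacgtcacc
Cnn2 (chr10:79988480-79988599, plus strand): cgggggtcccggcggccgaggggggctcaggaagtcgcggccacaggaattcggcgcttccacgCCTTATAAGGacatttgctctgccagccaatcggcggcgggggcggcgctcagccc
Vcl (chr14:20929148-20929267, plus strand): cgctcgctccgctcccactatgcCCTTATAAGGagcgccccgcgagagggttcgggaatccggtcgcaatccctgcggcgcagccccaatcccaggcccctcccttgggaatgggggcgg
Nop2 (chr6:125131763-125131882, plus strand): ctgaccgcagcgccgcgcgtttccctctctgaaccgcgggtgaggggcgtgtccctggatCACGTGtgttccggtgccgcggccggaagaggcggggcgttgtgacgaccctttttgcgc
Hspd1 (chr1:55088261-55088380, minus strand): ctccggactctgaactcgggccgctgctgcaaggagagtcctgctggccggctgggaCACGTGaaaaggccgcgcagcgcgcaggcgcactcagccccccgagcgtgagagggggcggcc
Upp1 (chr11:9117888-9118007, plus strand): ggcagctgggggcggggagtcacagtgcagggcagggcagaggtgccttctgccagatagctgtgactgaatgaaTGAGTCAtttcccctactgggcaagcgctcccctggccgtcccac

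Beside these sequences, Mcm5 fell by 0.78 (SE 0.17), Nop2 by 1.19 (SE 0.21), Hspd1 by 1.08 (SE 0.13) and Upp1 by 3.48 (SE 0.12), whereas Cnn2 and Vcl rose by 0.99 (SE 0.19) and 1.03 (SE 0.14). Not all members of a group held its motif: in the window from 250 bases before to 50 after the start, 3 of 33 replication promoters held the E2F motif, 2 of 13 contractile promoters the CArG box and 12 of 41 promoters of the ribosome biogenesis list the E-box. Acta2, with the steepest rise of the contractile list, held no exact match of a motif searched, and near matches were not searched.

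The same drug comparison in co-culture rests on 4 other arrays, which shared only the normalisation and the fit. There 1908 of the 6982 genes were called (27.3%), 1013 higher and 895 lower. Of the 1453 genes higher in mono-culture, 743 were also higher in co-culture, 51.1% of the mono-culture list and 73.3% of the co-culture list. Of the 1345 lower genes, 659 were also lower, 49.0% and 73.6%. Opposite calls were made for 13 genes that rose and 9 genes that fell in mono-culture. Across the 6390 genes on all 4 mono-culture arrays the fold changes correlated at r = 0.777 (Spearman 0.71), a description across genes, which are not independent replicates.

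The mono-culture values were mostly the farther from 0. For genes higher in mono-culture the median log2 fold change was 0.71 there and 0.46 in co-culture, and for lower genes -0.71 and -0.43. The genes were selected on the mono-culture values, so nothing is read from this order. Upp1 read -3.48 in mono-culture and -3.28 in co-culture (difference -0.19, SE 0.17). Ogn was detected with PLX4720 only and Btc with DMSO only in both cultures. Larger gaps were seen in Thbs1 (2.87 and 0.94), Foxq1 (2.94 and 1.08) and, in the other direction, Acta2 (3.93 and 6.13), and none of these 3 differences passed the test of the difference itself.

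Where the effect itself was tested for a difference between cultures, 6 of the 6982 genes passed at an adjusted p under 0.05 (0.0859%, limma interaction term), and 1168 passed at an unadjusted p under 0.05 (16.7%). Fos was detected on no DMSO array of either culture and read 7.05 on both PLX4720 arrays in mono-culture and 10.36 and 9.95 in co-culture. For the other 5 the measured effect had opposite signs. Ulk4, a pseudokinase gene, read 6.90 and 6.71 with DMSO and 7.80 and 7.82 with PLX4720 in mono-culture (1.01, SE 0.14), and fell by 1.24 in co-culture.

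Dipk1a, a gene of the divergent kinase family, rose by 0.97 (SE 0.24) and fell by 1.51 in co-culture, the mono-culture call being lost without DMSO replicate 1. Rasl11b, a small GTPase gene, was detected with PLX4720 only in mono-culture (5.17 and 5.04 against 6.23 and 6.15). In co-culture it read 5.61 and 5.65 with DMSO, detected on 1 array, and 5.18 and 5.07 with PLX4720, detected on none, so its opposite sign rests on values at background. Aqp1, the water channel gene, went from 10.64 and 10.68 to 10.04 and 9.97 (-0.65, SE 0.12) and rose by 0.62 in co-culture. H3c7, a histone H3 gene of a family with near-identical coding sequences, fell by 1.09 (SE 0.18) and rose by 0.67 in co-culture, detected on 1 array of the dimmer group in each culture. The count of 6 lay between 2 and 117 over the alternatives tried.

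**Figure D5:**
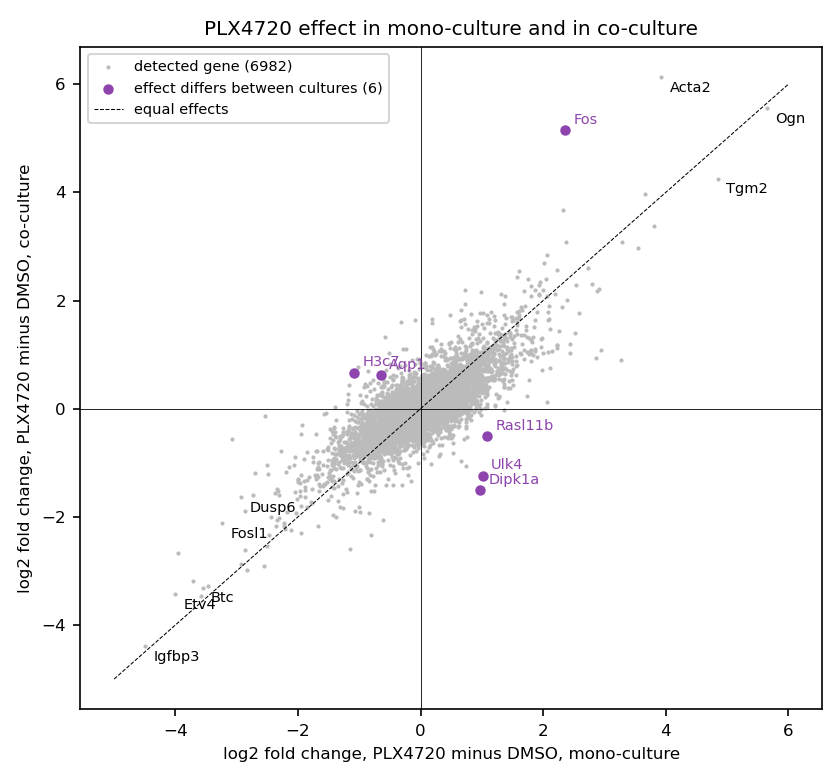
Log2 fold change (PLX4720 minus DMSO) of the 6982 genes in mono-culture (x axis) and in co-culture (y axis), with the dashed line marking equal effects. The 6 genes whose effect differed between cultures are purple: Fos, not detected with DMSO, lies over the line, and Ulk4, Dipk1a, Rasl11b, Aqp1 and H3c7 lie in the quadrants of opposite sign.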

How the data were processed

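The authors hybridised amplified, biotin-labelled total RNA to Illumina mouse bead arrays. Deposited were mean bead intensities and detection p-values per probe, and, in the value table, log2 values that equal the log2 of the quantile-normalized intensities (the largest difference was 5e-09). lumi is named in the submitters' processing notes, with no version. The mean intensity column was used as deposited, and the authors' log2 values served as an alternative. This alternative repeats the setting without background subtraction.

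Intensities of all 8 arrays were background-corrected from the detection p-values, quantile normalized and log2 transformed (neqc, offset 16, limma 3.58.1, R 4.3.3). Probes with a detection p under 0.01 on 2 or more arrays were retained (10660 of 25697). Names came from the platform annotation (23978 probes with 1 symbol, 1719 with none), updated by gene ID to RefSeq for 23962 probes, and each of the 7357 genes was read from its kept probe of highest mean. The means of the 4 groups were fitted over the 8 arrays (lmFit, eBayes, 4 residual degrees of freedom), so that all groups shared 1 estimate of the spread. The contrasts were PLX4720 minus DMSO in mono-culture, the same in co-culture, and their difference, adjusted by Benjamini-Hochberg over all genes tested. A gene was called at an adjusted p under 0.05. Precision was limited by the number of arrays.

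The members and the 42 gene lists were chosen with earlier results of these data known. Lists are described by counts and medians, with no test of a list. Named genes were the detected ERK output genes, the 15 steepest rises and falls with groups that did not overlap, up to 4 genes of smallest p in each list, genes whose effect differed between cultures and cell type markers. A gene among the steepest rises is not reported here. Other genes named in the text were chosen after their values were seen. The alternatives were 4 other normalizations, no filter, detection on all 4 mono-culture arrays, the mean of a gene's probes, the replicate number as a block, the mono-culture arrays alone, array weights, the methods' t-test, and leaving out each array.

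Replicate numbers did not pair the samples: the deviations of same-numbered arrays from their group means correlated at -0.0836 to 0.0899.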

Additional observations from a re-analysis of the deposited data

Results flagged for a closer look

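The effect of PLX4720 differed between mono-culture and co-culture for 6 of the 6982 detected genes by the interaction term (limma, adjusted p under 0.05). The differences below are the mono-culture effect minus the co-culture effect on the log2 scale. Ulk4 differed by 2.25 (adjusted p = 0.00285) and Dipk1a by 2.48 (adjusted p = 0.0287), both higher with PLX4720 in mono-culture and lower in co-culture. Rasl11b differed by 1.59 (adjusted p = 0.0113), but it was detected on no DMSO array in mono-culture and, in co-culture, on 1 DMSO array and no PLX4720 array, so this value rests on signals at background. Aqp1 differed by -1.28 (adjusted p = 0.0287) and H3c7 by -1.76 (adjusted p = 0.0478), both lower in mono-culture and higher in co-culture. Fos differed by -2.79 (adjusted p = 0.00258), with no DMSO array of either culture above background, so both effects are measured against background. With 2 arrays in a group, no sample could be judged far from the others of its group.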

How the results depend on the processing

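Under 19 alternatives no called gene among those examined changed direction. No background subtraction and the authors' log2 values gave the same values, so they are not separate support. The count of 1453 higher genes lay between 953 (without mono-culture DMSO replicate 1) and 1565 when an array was left out, and that of 1345 lower genes between 932 and 1433. A lone array of a group was assumed to vary like the other groups. The methods' t-test, run on each gene with 4 arrays, left 0 higher and 0 lower genes after Benjamini-Hochberg adjustment, against 1163 and 1058 at an unadjusted p under 0.05. Under the other alternatives 80.5% to 97.6% of calls were shared. Median scaling gave 1002 higher and 1332 lower genes, so 42.9% of calls were higher against 51.9%. The 6 genes whose effect differed between cultures became 95 without background subtraction and with the authors' log2 values, 117 with normexp and an offset of 50, 102 with median scaling, 38 with detection required on all 4 mono-culture arrays, and 2 to 30 when an array was left out. No such count could be had from the mono-culture arrays alone or from the t-test. With the replicate block that count was 45, while 1426 genes were higher and 1329 lower, and samples shared only a number. The cause of these shifts was not tested. Dim genes are limited by background: where a gene was not detected in a group, its fold is a bound.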
